A study of Drosophila melanogaster with 6 samples.

Results

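Cytochrome P450 genes outside the Cyp6a17 cluster were compared between proboscises of poxn70 homozygous and poxn70 heterozygous male Drosophila melanogaster. The genes were all those whose symbol in the array annotation starts with Cyp and a digit, without the 9 genes of the Cyp6a17 cluster, and where several single-gene probe sets read a gene, the one of highest mean was used. The rule took 74 of the 11982 genes on the array. Of these, 2 (Cyp1 and Cyp40) encode cyclophilins, which are protein-folding enzymes and not P450s, so 72 P450 genes are described. The 3 homozygous samples carried the poxn70 allele of Pox neuro (Poxn) on both second chromosomes and the 3 heterozygous samples on one, with 1 array per sample. Males had eclosed 8 to 18 days earlier. Each array held RNA of 164 to 280 proboscises, so a sample is a pool of animals and of all cell types of the organ. The other alleles and the genetic background of either group are not given in the sources used here. Poxn encodes a transcription factor that gives bristles of the taste organs their chemosensory identity, and the comparison asks which transcripts of the proboscis differ when both copies carry the allele.

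Cytochrome P450s are haem enzymes that insert an oxygen atom into small lipophilic molecules. In insects they fall into the CYP2, CYP3, CYP4 and mitochondrial clans. Members of the CYP2 and mitochondrial clans include the enzymes that make and degrade the moulting hormone ecdysone, many of the CYP3 clan (Cyp6, Cyp9 and Cyp28 among them) oxidise plant toxins and insecticides, and the CYP4 clan includes enzymes of fatty acid and cuticular hydrocarbon metabolism. In chemosensory organs, P450s of support cells are thought to degrade odorants and tastants.

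Values are deposited log2 GCRMA values, differences are homozygous minus heterozygous, and means carry the SD over 3 arrays. A value under 3 was treated as background. Of the 72 P450 genes, 59 had at least 1 of 6 values that was not under 3, here termed above background. Cyp304a1 and Cyp4aa1 are included through 1 array each. The other 13 had all 6 values under 3 (Cyp28c1, Cyp303a1, Cyp309a2, Cyp310a1, Cyp313a2, Cyp313a3, Cyp313a5, Cyp316a1, Cyp4ad1, Cyp4s3, Cyp6a16, Cyp6a18 and Cyp6g2). Poxn itself was read at background in both genotypes, at 2.65, 2.37 and 2.37 in homozygotes, against 2.36, 2.30 and 2.37 in heterozygotes, so its probe set gave no check of the labels. Homozygous replicate 1 stood apart from its group, with correlations of 0.971 and 0.973 to the other homozygous arrays, which correlated at 0.994 with each other. All 4 glial and all 4 muscle genes measured were above background. Of 4 neuronal genes, elav and nSyb were above background, while brp and para were under 3 on all 6 arrays. Such genes are not particular to the proboscis, so they gave no check of the labelled organ.

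Of the P450 genes, 2 fell in homozygous proboscises and 0 rose at an adjusted p under 0.05 (limma over all 18769 probe sets). Over all genes of the array 0.442% were called lower and 0.0751% higher, and of the P450 genes 2.78% were called lower. At an unadjusted p under 0.05, 13 of the 59 P450 genes above background were lower and 7 higher (22% and 11.9%), against 5.73% and 6.43% of all genes above background. The groups did not overlap in 18 P450 genes that were lower and 8 that were higher (30.5% and 13.6%), against 8.55% and 13.3% of all genes above background. With each array centred on its median these counts were 13 lower and 9 higher (22% and 15.3%), against 8.07% and 14% of all genes. Without homozygous replicate 1 they were 21 lower and 13 higher, against 17% and 24.7% of all genes, and without both arrays numbered 1 they were 30 lower and 15 higher, against 22.4% and 32.6% of all genes. The median difference over the 59 genes was -0.15, against 0.05 over all genes above background, and 27.1% of them differed by more than 1 on the log2 scale in either direction, against 7.01% of all genes. The groups overlapped in the other 33 genes, whose differences ran from -1.72 for Cyp4g1 to 0.71 for Cyp4ac2.

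**Figure D1:**
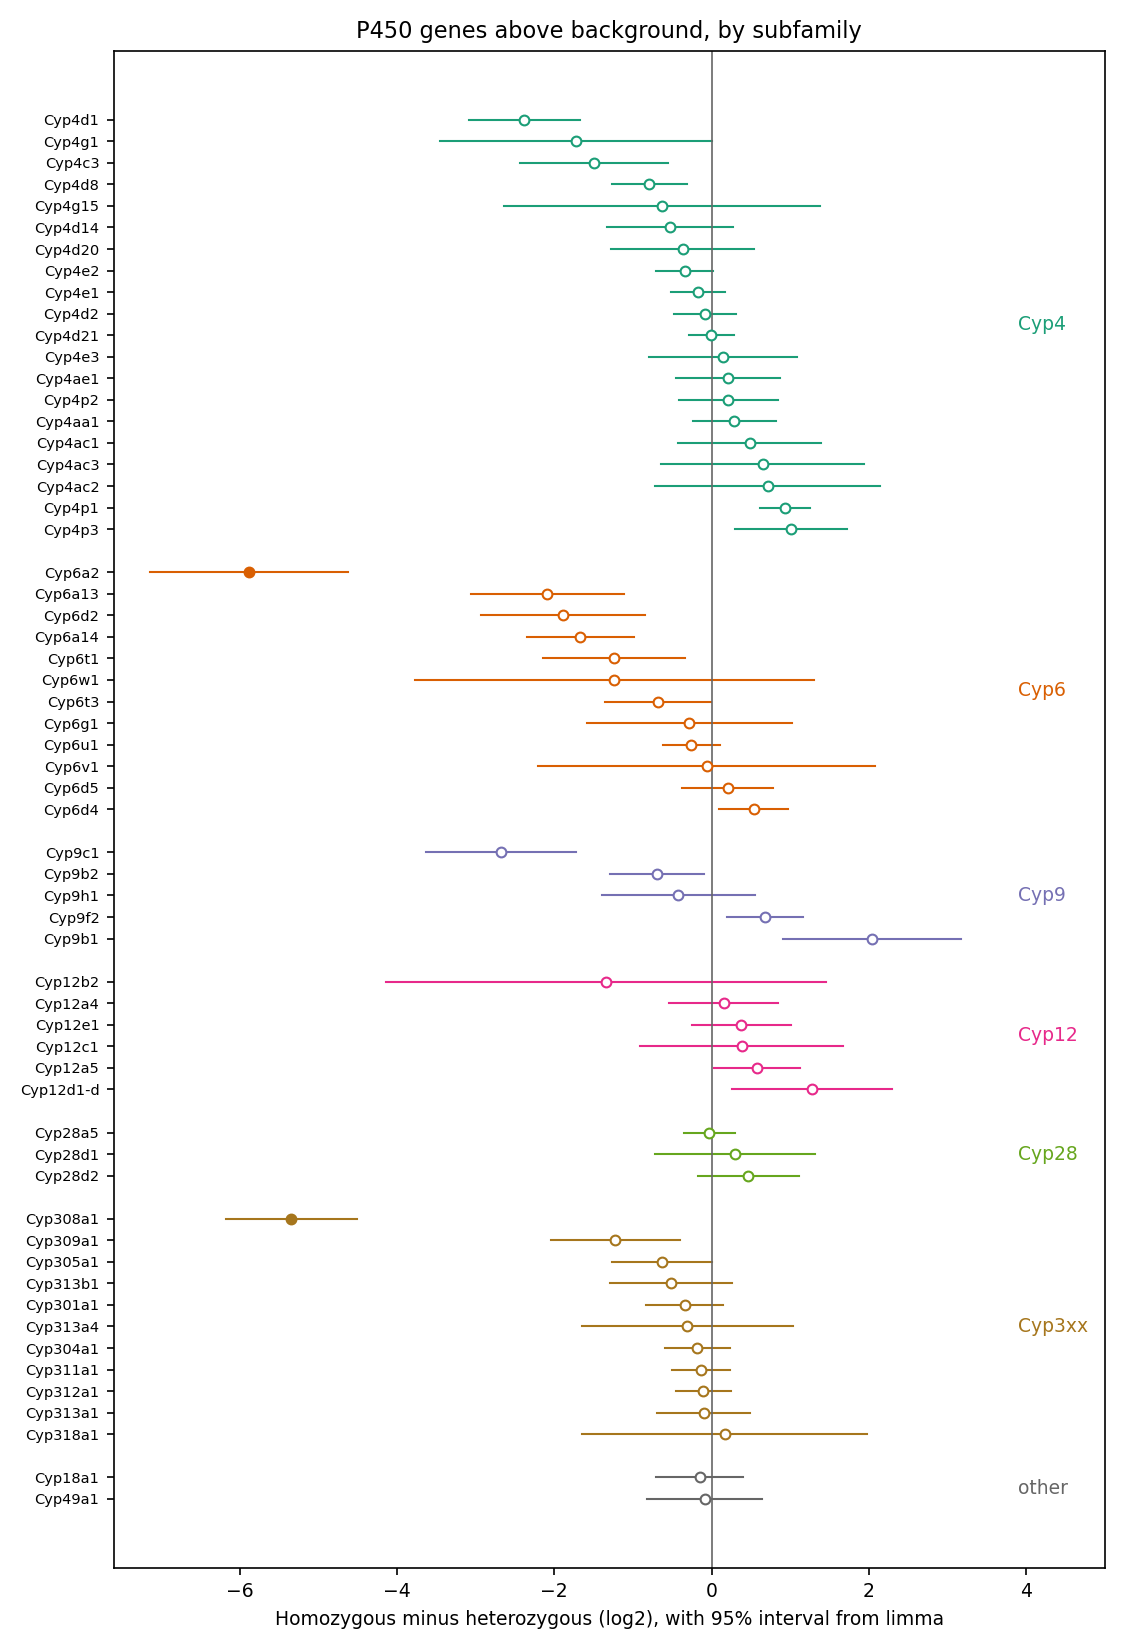
Difference between genotypes (log2, homozygous minus heterozygous) for the 59 P450 genes above background, by subfamily, with the 95% interval from limma; filled points passed an adjusted p of 0.05 and open points did not. Cyp6a2 and Cyp308a1 are the filled points at -5.89 and -5.34, and the other 57 lie between -2.68 and 2.04.

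Cyp6a2 and Cyp308a1 were the P450 genes that fell. Cyp6a2 encodes an enzyme that oxidises insecticides such as DDT and is induced by barbiturates and caffeine, and its transcript level is known to differ widely between fly strains. Its values were 2.38, 2.82 and 3.28 in homozygotes, against 7.80, 9.22 and 9.13 in heterozygotes. In homozygotes 2 of the 3 values lay under the background limit, and the groups were more than 4 log2 units apart. The fitted difference was -5.89 (SE 0.50, limma adjusted p = 0.0280). Its size is not resolved, since the homozygous mean of 2.83 lay under the limit. With values under 3 set to 3 the difference was -5.62. Cyp308a1 encodes a P450 of the CYP3 clan with no role given here. On the X chromosome 1 gene separates it from Cyp18a1, which encodes an enzyme that inactivates ecdysone. Its values were 2.48, 2.91 and 2.42 in homozygotes, against 7.44, 8.33 and 8.08 in heterozygotes. All 3 homozygous values were at background, so the transcript was at least 30.9-fold lower (fitted difference -5.34, SE 0.33, limma adjusted p = 0.0176). Cyp18a1 had overlapping groups, with 4.89, 4.87 and 4.86 in homozygotes, against 4.76, 5.24 and 5.08 in heterozygotes (adjusted p = 0.704). A second probe set of Cyp18a1 was under 3 on all 6 arrays, so its probe sets disagree on whether the gene is above background.

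Both calls depended on the fit. With the replicate number as a block neither gene was called (limma adjusted p = 0.267 for each), and over all genes 0% were called. With the block and only the brighter 50% of probe sets, an alternative chosen after seeing the data, both were called (0.0179 for Cyp6a2 and 0.0173 for Cyp308a1), in a fit that called 1.05% of the genes it held. When 1 array was left out, Cyp308a1 was called without homozygous replicate 1 and without heterozygous replicate 1, and Cyp6a2 without heterozygous replicate 1. Over these 6 fits the adjusted p ran from 0.0243 to 0.0982 for Cyp308a1 and from 0.0319 to 0.168 for Cyp6a2, while the fitted differences stayed between -5.60 and -5.15 and between -6.34 and -5.63.

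**Figure D2:**
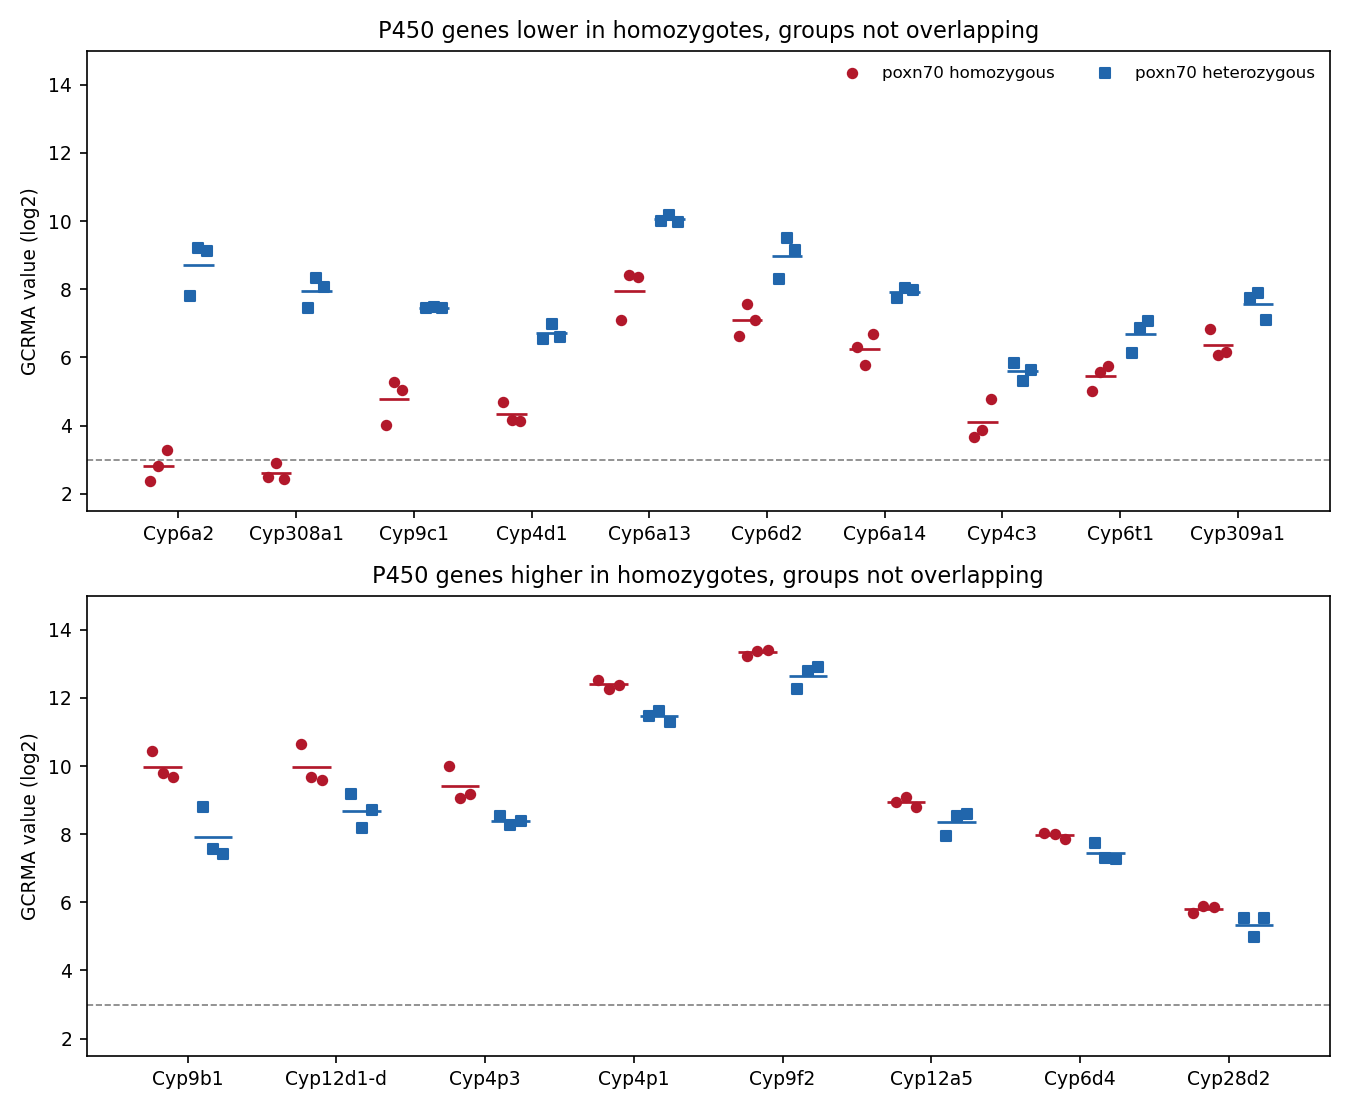
GCRMA values (log2) on each array for the 10 P450 genes with the largest decreases (upper panel) and the 8 with increases (lower panel) whose groups did not overlap; circles are the 3 homozygous arrays, squares the 3 heterozygous arrays, bars the group means, points within a group replicates 1 to 3 from left to right, and the dashed line the background limit of 3. Only Cyp6a2 and Cyp308a1 have homozygous values under that limit.

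The Cyp6 genes were mostly lower in homozygotes. Of 15 Cyp6 genes, 12 were above background, with a median difference of -0.96. Of these, 7 were lower and 1 higher without overlap (58.3% and 8.33%), against 8.55% and 13.3% of all genes above background. Beside Cyp6a2, no other Cyp6 gene passed the adjusted threshold. Cyp6a13 and Cyp6a14 lie close together on arm 2R with 1 gene between them, and both were lower without overlap. Cyp6a13 read 7.11, 8.42 and 8.35 in homozygotes, against 9.99, 10.17 and 9.98 in heterozygotes (difference -2.09, SE 0.38, limma adjusted p = 0.201). Cyp6a14 read 6.30, 5.78 and 6.68 in homozygotes, against 7.75, 8.02 and 7.99 in heterozygotes (difference -1.67, SE 0.27, adjusted p = 0.143). For both, the highest homozygous array was at least 1 log2 unit under the lowest heterozygous one. Cyp6a13 was called in 1 of 15 alternative fits, without homozygous replicate 1 (adjusted p = 0.0332), the array on which it was lowest, and its adjusted p reached 0.694 in the others.

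Cyp6d2, needed for survival of flies exposed to the plant alkaloid camptothecin, stood at 6.62, 7.58 and 7.09 in homozygotes, against 8.29, 9.52 and 9.15 in heterozygotes. Its difference of -1.89 did not pass (limma adjusted p = 0.293), and it did so in 1 of 15 alternative fits, with the replicate block in the brighter 50% of probe sets (0.0457), with values of up to 0.724 in the others. Cyp6t1 was lower without overlap as well, at 5.44 ± 0.37 in homozygotes and 6.68 ± 0.49 in heterozygotes (SD, n = 3 each, adjusted p = 0.504). So was Cyp6t3, a gene linked to ecdysone synthesis in the larval prothoracic gland, at 3.60 ± 0.44 and 4.28 ± 0.22 (adjusted p = 0.611). The last of the 7, Cyp6u1, chosen after its values were seen, differed by -0.26 (adjusted p = 0.611). Cyp6d4 was the Cyp6 gene higher without overlap, at 7.98 ± 0.09 in homozygotes and 7.44 ± 0.25 in heterozygotes (adjusted p = 0.586). The other Cyp6 genes named by role or level had overlapping groups. Cyp6g1, whose overexpression gives resistance to DDT, read 10.83, 12.44 and 12.46 in homozygotes, against 11.75, 12.39 and 12.43 in heterozygotes. Cyp6w1, a DDT-induced gene, read 8.86, 11.98 and 12.25 in homozygotes, against 11.59, 12.74 and 12.46 in heterozygotes. In both genes homozygous replicate 1 lay more than 1 log2 unit under the other homozygous arrays, and the 95% intervals of the difference were -1.59 to 1.02 for Cyp6g1 and -3.77 to 1.303 for Cyp6w1. Cyp6d5 stood at 14.52 ± 0.40 in homozygotes and 14.31 ± 0.11 in heterozygotes. Cyp6g2, the tandem neighbour of Cyp6g1, was at background on all arrays.

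The Cyp9 genes went in both directions, and none passed the adjusted threshold. All 5 were above background, 2 lower and 2 higher without overlap (40% each), against 8.55% and 13.3% of all genes above background. Cyp9c1 read 4.03, 5.29 and 5.03 in homozygotes, against 7.46, 7.49 and 7.44 in heterozygotes, and its heterozygous arrays lay within 0.1 of each other. The difference was -2.68 (SE 0.38, limma adjusted p = 0.0984). It passed in 4 of 15 alternative fits, and its adjusted p ran from 0.0260 in the brighter 50% of probe sets to 0.427 without heterozygous replicate 2. The value was 0.0355 without homozygous replicate 1 and 0.334 with the replicate block. Cyp9b1 and Cyp9b2 are adjacent on arm 2R, and their values lay in opposite directions. Cyp9b1 read 10.44, 9.79 and 9.67 in homozygotes, against 8.80, 7.57 and 7.41 in heterozygotes (difference 2.04, SE 0.45, adjusted p = 0.294). In both genotypes replicate 1 was its highest array. Cyp9b2 read 11.14, 11.40 and 11.89 in homozygotes, against 11.99, 12.42 and 12.09 in heterozygotes (difference -0.69, SE 0.23, adjusted p = 0.611). Cyp9f2 was at 13.34 ± 0.10 in homozygotes and 12.66 ± 0.33 in heterozygotes, without overlap (adjusted p = 0.492). Cyp9h1 had overlapping groups, at 9.04 ± 0.46 in homozygotes and 9.46 ± 0.58 in heterozygotes.

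The 18 genes numbered Cyp301 to Cyp318 belong to several clans, and 7 of them were at background. Of the other 11, 10 had a lower mean in homozygotes, and the median difference was -0.31. Without overlap 5 were lower and 0 higher (45.5% and 0%), against 8.55% and 13.3% of all genes above background. After Cyp308a1, the lowest difference was that of Cyp309a1, another gene of the CYP3 clan. It read 6.83, 6.08 and 6.15 in homozygotes, against 7.73, 7.89 and 7.10 in heterozygotes (difference -1.22, SE 0.32, limma adjusted p = 0.439), and its neighbour Cyp309a2 was at background. Cyp305a1, a CYP2 clan gene, was at 7.74 ± 0.35 in homozygotes and 8.37 ± 0.30 in heterozygotes, without overlap (adjusted p = 0.611), and Cyp311a1, chosen after its values were seen, differed by -0.13 without overlap (adjusted p = 0.634). Cyp301a1, a mitochondrial P450 needed for the adult cuticle, was at or near background, with 2.93, 2.92 and 2.90 in homozygotes, against 3.13, 2.96 and 3.69 in heterozygotes. It is counted among the 5 without overlap, although 2.93 and 2.96 are both under the limit. Cyp304a1, chosen after its values were seen, is counted among the 10 lower means. It read 3.31 on heterozygous replicate 2 and under 3 on the other arrays. Cyp303a1, which is required for the structure of external sense organs, was under 3 on all 6 arrays. Cyp313a1 stood at 15.22 ± 0.40 in homozygotes and 15.33 ± 0.11 in heterozygotes, and Cyp312a1 at 7.60 ± 0.06 and 7.71 ± 0.17, both with overlapping groups.

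Among 22 Cyp4 genes, 20 were above background, and the median difference was -0.04. Without overlap 4 were lower and 2 higher (20% and 10%), against 8.55% and 13.3% of all genes above background. Cyp4d1 read 4.70, 4.17 and 4.12 in homozygotes, against 6.55, 6.99 and 6.60 in heterozygotes. Every homozygous array lay more than 1.5 log2 units under every heterozygous one, and the difference of -2.38 (SE 0.28) had a limma adjusted p of 0.0579. It passed in 4 of 15 alternative fits, and its adjusted p ran from 0.0114 with arrays centred on their medians to 0.334 with the replicate block. With 1 array left out it ran from 0.0528 to 0.290. Cyp4c3 read 3.67, 3.86 and 4.78 in homozygotes, against 5.85, 5.32 and 5.63 in heterozygotes (difference -1.50, SE 0.37, adjusted p = 0.391). Cyp4e2 was at 13.27 ± 0.22 in homozygotes and 13.61 ± 0.05 in heterozygotes, without overlap (adjusted p = 0.611). Cyp4d8, the last of the 4, was chosen after its values were seen and stood at 7.004 ± 0.29 in homozygotes and 7.80 ± 0.05 in heterozygotes (adjusted p = 0.358).

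Cyp4p1 and Cyp4p3, adjacent on arm 2R, were the Cyp4 genes that were higher without overlap. Cyp4p1 read 12.53, 12.26 and 12.39 in homozygotes, against 11.48, 11.60 and 11.30 in heterozygotes (difference 0.94, SE 0.13, limma adjusted p = 0.0852). Cyp4p3 read 9.998, 9.05 and 9.17 in homozygotes, against 8.53, 8.28 and 8.38 in heterozygotes (difference 1.01, SE 0.28, adjusted p = 0.481). In both genes homozygous replicate 1 was the highest array. Cyp4p1 passed in 2 of 15 alternative fits, and its adjusted p ran from 0.0375 with a random replicate effect to 0.336 without heterozygous replicate 3. Cyp4g1, the decarbonylase that completes the synthesis of cuticular hydrocarbons in oenocytes, read 10.56, 9.72 and 8.42 in homozygotes, against 10.39, 11.53 and 11.95 in heterozygotes. The groups overlapped through replicate 1 of each genotype, and the difference of -1.72 had a 95% interval of -3.45 to 0.01 (adjusted p = 0.611). Of 7 oenocyte genes listed, FASN2, eloF, Desat2 and FarO were under 3 on all 6 arrays. The mean log2 value of the others, Cyp4g1 included, lay between 10.79 and 11.03 in homozygotes and between 10.9 and 11.9 in heterozygotes. That mean contains Cyp4g1, so it is no separate measure beside that gene. The other genes in it, bond and Desat1, differed by -0.087 and 0.090. Cyp4g15, known from the nervous system, read 7.68, 10.01 and 9.95 in homozygotes, against 8.95, 10.0015 and 10.57 in heterozygotes. Cyp4d21 (sxe1), a P450 of the male head fat body that affects courtship, stood at 14.67 ± 0.11 in homozygotes and 14.68 ± 0.04 in heterozygotes, with a 95% interval of the difference from -0.29 to 0.28.

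The 6 Cyp12 genes, which encode mitochondrial P450s, were all above background, with a median difference of 0.38 and 0 calls. Of these, 0 were lower and 2 higher without overlap (0% and 33.3%), against 8.55% and 13.3% of all genes above background. Cyp12d1-d, an insecticide-inducible gene, read 10.66, 9.68 and 9.58 in homozygotes, against 9.19, 8.17 and 8.72 in heterozygotes (difference 1.28, SE 0.40, limma adjusted p = 0.575). It has a near-identical copy, Cyp12d1-p, so signal may be shared between them. Cyp12a5 was at 8.94 ± 0.15 in homozygotes and 8.36 ± 0.36 in heterozygotes, without overlap (adjusted p = 0.611). Its adjacent gene Cyp12a4, linked to resistance against lufenuron, had overlapping groups at 10.58 ± 0.44 and 10.43 ± 0.28. Cyp12e1 had overlapping groups in each of its probe sets. Cyp12b2, chosen after its values were seen, read 5.13, 8.89 and 8.84 in homozygotes, against 8.66, 8.89 and 9.32 in heterozygotes, so its mean difference of -1.34 came from homozygous replicate 1. Of 4 Cyp28 genes, 3 were above background. Cyp28d2 was at 5.81 ± 0.10 in homozygotes and 5.35 ± 0.32 in heterozygotes, without overlap (adjusted p = 0.611), while its neighbour Cyp28d1, linked to nicotine resistance, had overlapping groups at 10.74 ± 0.43 and 10.44 ± 0.66. Cyp28a5 stood at 11.79 ± 0.18 in homozygotes and 11.82 ± 0.11 in heterozygotes, and Cyp49a1, a mitochondrial P450, at 6.80 ± 0.13 and 6.89 ± 0.49.

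**Figure D3:**
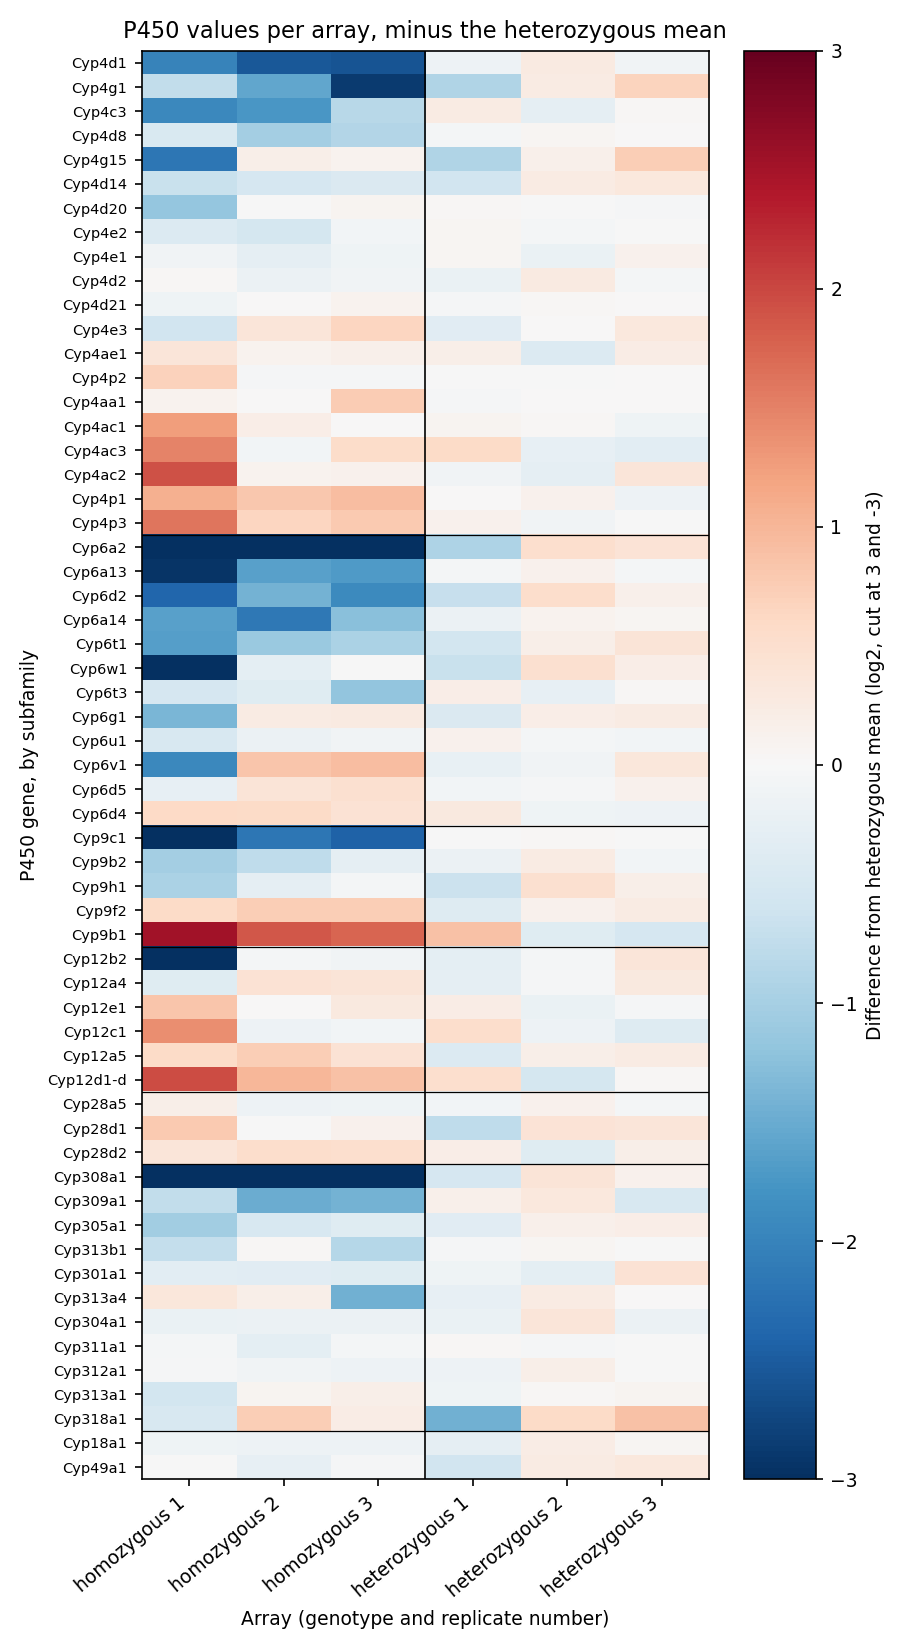
Value of each of the 59 P450 genes above background on each array minus the heterozygous mean of that gene (log2, colour, cut at 3 and -3); columns are the arrays by genotype and replicate number, rows are genes by subfamily. Homozygous replicate 1 is the homozygous array farthest from its group's median in 41 of the 59 genes.

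The spread within homozygotes was uneven between arrays. Homozygous replicate 1 was the array farthest from the median of its group in 41 of the 59 genes (69.5%), against 68.0% of all genes above background. The median of the 59 differences from the heterozygous mean was -0.35 on homozygous replicate 1, -0.12 on replicate 2 and -0.05 on replicate 3. For the Cyp6 genes these medians were -1.64, -0.32 and -0.53, and for the Cyp12 genes 0.70, 0.22 and 0.33. The sign was thus shared by the 3 homozygous arrays in both subfamilies, while the size on replicate 1 was more than 1.5 times that on the others.

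Poxn lies on arm 2R, as do 24 of the 72 P450 genes, and homozygotes and heterozygotes differ in the chromosome that carries it. Of the 22 P450 genes on 2R above background, 10 were lower and 4 higher without overlap (45.5% and 18.2%), against 10.9% and 14.3% of all genes on 2R above background. Of the 37 P450 genes above background on the other arms, 8 were lower and 4 higher without overlap (21.6% and 10.8%), against 7.94% and 13.1% of all genes there. Whether the P450 genes on 2R differ from those elsewhere was not tested. Cyp4aa1 lies closest to Poxn, with 13 genes between them, and read 2.95, 2.86 and 3.61 in homozygotes, against 2.81, 2.87 and 2.87 in heterozygotes. It was chosen by its position after the values were seen. Cyp6a2 and Cyp9c1 lie far from Poxn on opposite sides, with 1553 and 1792 genes between. An effect of poxn70 and an effect of other genetic differences between the genotypes, on the second or another chromosome, cannot be told apart in this design.

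**Figure D4:**
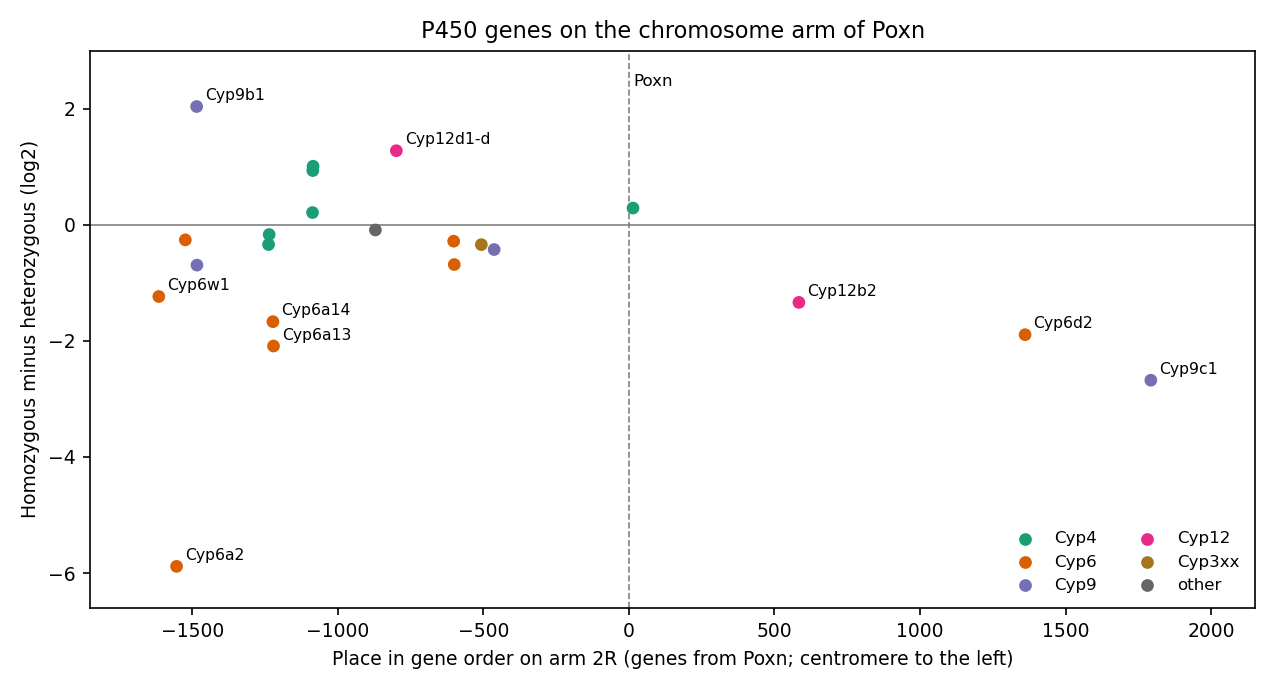
Difference between genotypes (log2, homozygous minus heterozygous) of the 22 P450 genes above background on arm 2R against their place in gene order, counted in annotated genes from Poxn (dashed line), with subfamilies in colour. Cyp6a2 at -5.89 and Cyp9b1 at 2.04 lie on the centromere side, and Cyp9c1 at -2.68 lies on the other side.

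P450 genes often lie in tandem groups, and neighbours did not always share a direction. Of 19 pairs of P450 genes with at most 1 gene between them, 12 had both genes above background. In 2 of the 12 both genes differed in the same direction without overlap (Cyp6a13 with Cyp6a14 lower, Cyp4p1 with Cyp4p3 higher), in 1 they differed in opposite directions (Cyp9b1 with Cyp9b2), and in 9 at least 1 gene had overlapping groups. Singly, 30.5% of the P450 genes above background were lower and 13.6% higher without overlap. Such pairs were not counted over all genes. Whether neighbouring P450 genes share a direction more often than other genes was therefore not tested. Probe sets of close paralogs may share signal, and this was not tested either.

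Listed genes that supply P450s with electrons or regulate them gave 0 calls among those measured. The electron donor genes Cpr and dare of this list had no value here. Of 20 such genes listed, 16 had a probe set and 15 were above background. Without overlap 3 were lower and 4 higher (20% and 26.7%), against 8.55% and 13.3% of all genes above background. Of the electron donors, the mitochondrial ferredoxin Fdx2 was at 10.09 ± 0.14 in homozygotes and 9.62 ± 0.13 in heterozygotes (limma adjusted p = 0.409), and Cyt-b5, which can pass electrons to microsomal P450s, at 13.79 ± 0.15 and 13.44 ± 0.02 (adjusted p = 0.605). spineless (ss), the fly homologue of the aryl hydrocarbon receptor, read 8.28, 7.35 and 7.64 in homozygotes, against 10.004, 9.51 and 9.67 in heterozygotes (difference -1.97, SE 0.28, adjusted p = 0.106). Its groups lay more than 1 log2 unit apart, and it passed in 4 of 15 alternative fits, with adjusted p from 0.0224 to 0.411. The nuclear receptor gene Hr3 was at 3.40 ± 0.33 in homozygotes and 4.40 ± 0.20 in heterozygotes (adjusted p = 0.288), and EcR, the ecdysone receptor, at 8.84 ± 0.14 and 9.20 ± 0.14 (adjusted p = 0.611). The regulators of xenobiotic response cnc and Hr96 had overlapping groups, at 11.83 ± 0.06 and 10.01 ± 0.30 in homozygotes and 11.91 ± 0.18 and 9.99 ± 0.41 in heterozygotes. Keap1, which encodes the inhibitor of the cnc protein, was at 9.55 ± 0.11 in homozygotes and 9.02 ± 0.34 in heterozygotes, without overlap (adjusted p = 0.611). The 7 ecdysone synthesis genes with a probe set, of 8 listed (dib, sad, shd, spo, spok, nvd and sro), were at background on all 6 arrays. They gave 0 calls by limma and 0 at an unadjusted p under 0.05.

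Levels of other marker genes, in lists chosen with earlier results of these data known, also differed between the genotypes. Of 4 bitter taste neuron genes, 3 were above background and all 3 were called lower, against 0.442% of all genes. Their mean log2 value was 2.51 to 3.42 on homozygous arrays and 7.74 to 8.44 on heterozygous arrays, and Gr89a was under 3 throughout. Of 4 sense organ support cell genes measured, nompA, pros and Obp49a were called lower, against the same 0.442% of all genes. The other, lush, had overlapping groups and a higher mean in homozygotes, at 6.25, against 5.11 in heterozygotes (adjusted p = 0.630). The mean of the 4 ran from 7.45 to 8.06 in homozygotes and from 9.73 to 10.4 in heterozygotes. With the replicate number as a block 0% of all genes were called, so the calls of both lists ended. The 2 general neuronal genes above background gave 0 calls, with a median difference of -0.87 and a mean of 5.40 to 7.11 in homozygotes, against 7.14 to 7.56 in heterozygotes, and elav was lower without overlap (difference -1.17). Of 6 blood cell genes, 3 were higher without overlap, against 13.3% of all genes above background, and 0 were called. Their median difference was 0.90, with a mean of 9.05 to 9.50 in homozygotes, against 8.37 to 8.83 in heterozygotes. Fat body genes above background had a mean of 8.28 to 8.37 in homozygotes and 7.89 to 8.47 in heterozygotes, and Malpighian tubule genes of 5.26 to 5.44 and 5.23 to 5.83. Gut genes ran from 2.90 to 7.32 in homozygotes and from 3.85 to 5.63 in heterozygotes. Among the genes averaged here, Yp1, fit, NaPi-T, Fst and Jon65Ai were under 3 on most arrays, so these ranges include values at background. Fewer cells of a type and less RNA per cell cannot be told apart in such bulk samples, and the part of these cell types in the P450 differences was not tested.

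The cyclophilin genes taken by the symbol rule had higher homozygous values without overlap, as did 13.3% of all genes above background. Cyp1 was at 13.76 ± 0.02 in homozygotes and 13.46 ± 0.08 in heterozygotes (limma adjusted p = 0.583), and Cyp40 at 7.85 ± 0.14 and 7.34 ± 0.19 (adjusted p = 0.563). Counting them with the P450 genes left the calls at 2 lower and 0 higher.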

How the data were processed

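Total RNA from pooled male proboscises was, per the labels' protocols, amplified in 2 rounds and hybridised to single-colour Affymetrix arrays. Per the submitters' processing notes the authors deposited log2 expression made with GCRMA (version not given in the sources used here). The values were used as deposited, with no new background correction or scaling. Of 18952 probe sets, 183 array controls were left out. Names came from the platform annotation, updated through a RefSeq gene table (Release 6 plus ISO1 MT) that gave arms and gene order. It matched all 72 P450 genes, and 2 probe sets that pair a P450 with another gene were not used. Poxn70 homozygous and heterozygous arrays, 3 each, were compared with limma 3.58.1 in R 4.3.3 (eBayes with an intensity trend, Benjamini-Hochberg over 18769 probe sets, threshold 0.05). The procedure was tested on simulated data. With detection calls not used here, the background limit of 3 is approximate, and 48.2% of probe sets lay under it on every array. A gene with all 3 values of 1 group under it is given as a bound. The number of arrays limits the precision.

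The genes, the lists and the background limit were chosen with earlier results of these data known. Genes were named by a rule: those called, up to 10 decreases and 10 increases without overlap, the 3 highest means of each subfamily, and genes with known roles. For the other lists the 4 smallest p were named. EcR, Keap1, cnc and Hr96 were named outside this rule with their values known, and the ecdysone synthesis genes with a probe set were all listed. Replicate numbers are shared between genotypes without a stated meaning. Arrays sharing a number deviated from their group means together (r = 0.372, 0.288 and 0.142), although homozygous array 3 correlated more with heterozygous array 2 (0.275). The main fit has no replicate block. Because every such r is above 0.1, the fit with the block is printed beside the calls it changes. Deviations within a group cancel out, so these r are not independent and do not show separately that each number marks a pair. Alternatives were the trend, a filter on dim probe sets, scaling, probe set choice, the block, the limit and arrays left out.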

Additional observations from a re-analysis of the deposited data

How the results depend on the processing

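The median difference of the P450 genes, -0.15, ran from -0.28 without heterozygous replicate 1 to -0.12 without heterozygous replicate 3, and was -0.23 without both arrays numbered 1. The SD of that median over the homozygous arrays, each taken against the heterozygous mean, was 0.158, which exceeds the size of the median itself. This SD holds no spread of the heterozygous arrays, so it cannot tell whether the shifts are small. The counts of calls moved, and so did those over all genes, given here in brackets. Calls of P450 genes were 1 lower and 0 higher without the intensity trend (0.267% and 0.0751%), 4 lower and 1 higher in the brighter 50% of probe sets (1.5% and 0.377%), 4 lower and 0 higher with arrays centred on their medians (0.918% and 0.225%), 0 and 0 with the replicate block (0% and 0%), 4 lower and 1 higher with the block as a random effect (0.901% and 0.342%), and 3 lower and 1 higher with the block in the brighter 50% (0.885% and 0.169%). Without both arrays numbered 1 there were 0 calls (0.0668% and 0%), and 30 genes were lower and 15 higher without overlap (22.4% and 32.6%). When 1 array was left out, 0 to 3 genes were called lower and 0 higher (0.0417% to 0.401% and 0% to 0.0584%). In these fits 18 to 26 genes were lower without overlap, the most without heterozygous replicate 1 (13%), and 8 to 13 higher (10.2% to 17% and 16.1% to 24.7%). The regulator ss was the 1 called gene of its list in the brighter 50%, with centred arrays, with the random effect, and with the block in the brighter 50%. The replicate block ended both P450 calls of the main comparison, and with it 0% of all genes were called. The cause was not tested, except that fits without an array hold fewer samples.

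Of 40 named P450 genes, 30 kept their sign throughout, and no gene that changed sign was called in the main comparison. With 1 array left out, the difference ran from -0.055 to 0.054 for Cyp4d21, -0.56 to 0.26 for Cyp6g1, -0.24 to 0.13 for Cyp313a1, -1.08 to 0.14 for Cyp4g15, -0.13 to 0.033 for Cyp28a5, -0.077 to 0.50 for Cyp28d1, -0.37 to 0.068 for Cyp49a1 and -0.061 to 0.0027 for Cyp6g2. Without both arrays numbered 1 it was 0.033 for Cyp4d21, 0.035 for Cyp6g1, 0.065 for Cyp313a1 and -0.32 for Cyp28d1. It was 0.0018 for Cyp4d21 with centred arrays, and 0.018 for Cyp18a1 and -0.00092 for Cyp303a1 with arrays quantile normalized again. Genes at background have no reliable difference.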
